A study of Homo sapiens with 9 samples.

Results

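The enzymes described here were listed together as those that trim, branch and cap N-glycans, the sugar trees that secreted and membrane proteins carry on asparagine. Some are described below by other work, on glycolipids (B3GNT5, B4GALT5 and ST3GAL5) or as a protein O-fucosyltransferase (FUT10). They are included in all counts of the set. The set was a list of 35 genes, taken by symbol. Of these, 34 had a probe set annotated to that gene alone, out of 14215 genes so measured on an array of 17859 probe sets. FUT11 was present only on a probe set shared with SEC24C and has no value here. FUT10 was matched by gene identifier, because the annotation now calls it POFUT3. Each of the 34 genes had 1 such probe set, so no choice between probe sets was needed. No filter on low values was applied, and all 34 were tested.

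The cells were SKOV3, a human ovarian tumour line known for an amplified ERBB2 gene. They were grown for 3 days with 50 µM Ac-4-deoxy-GlcNAc, with 50 µM Ac-GlcNAc or untreated. The compounds are the acetylated forms of N-acetylglucosamine without and with the hydroxyl group at carbon 4 of the ring. Acetyl groups let such sugars cross membranes. Each group had 3 arrays, 1 for each culture flask. The group labelled untreated had no vehicle stated in the labels, so an effect of acetate or of a solvent cannot be told apart from that of either sugar. All 9 samples are 1 cell line, and the p-values measure the spread between its flasks.

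N-glycan processing is an assembly line. Mannosidases in the endoplasmic reticulum and Golgi first cut mannose from the transferred precursor. The MGAT enzymes then add GlcNAc from UDP-GlcNAc to start each antenna, and galactosyltransferases of the B4GALT family extend that GlcNAc at the hydroxyl group of carbon 4. Fucosyltransferases and sialyltransferases decorate the core and the ends, while lysosomal enzymes instead receive a mannose 6-phosphate tag. In tumour cells, branching by MGAT5 and sialylation by ST6GAL1 are known for altering growth factor receptors and adhesion.

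Array medians lay between 6.581 and 6.655 on the log2 scale. Untreated replicate 2 stood apart, with an SD over probe sets of 1.92 where the 8 others had 2.075 to 2.179. It also had the lowest mean correlation with the rest, 0.987. By group that SD was 2.139 to 2.179 with Ac-GlcNAc, 2.075 to 2.165 with Ac-4-deoxy-GlcNAc and 1.92 to 2.082 in untreated cells. All 3 Ac-GlcNAc arrays lay above all 3 untreated arrays, so array spread and Ac-GlcNAc treatment cannot be told apart. Of 11 measured epithelial and ovarian tumour markers, 9 lay above the median probe set, ERBB2 and PAX8 among them. With Ac-4-deoxy-GlcNAc 1 of the 11 was called higher (CDH1) and 3 lower (36.4%, all probe sets 11%). With Ac-GlcNAc 1 was lower, MUC1 (9.09%, all probe sets 0.442%). Above the median probe set lay 0 of 6 endothelial, 1 of 7 immune and 2 of 9 fibroblast markers. Of the 6 endothelial markers 1 was called higher with Ac-4-deoxy-GlcNAc (16.7%), and of the 7 immune markers 1 lower (14.3%, all probe sets 11%). Neither of these lists held a call with Ac-GlcNAc, where 0.442% of all probe sets were called. Of the fibroblast markers 5 were called lower with Ac-4-deoxy-GlcNAc (55.6%, all probe sets 11%). With Ac-GlcNAc 0 were called in limma, where 0.442% of all probe sets were. The mean log2 level of the fibroblast list per array was 5.47 to 5.49 with Ac-4-deoxy-GlcNAc, 5.53 to 5.64 with Ac-GlcNAc and 5.83 to 5.99 in untreated cells, and its part in the results below was not tested.

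Few of the 34 genes were called, and their differences were small. With Ac-4-deoxy-GlcNAc against untreated cells, 1 of the 34 genes rose (FUT10), 1 fell (MAN1B1) and 32 were not called at an adjusted p under 0.05 in limma. That is 5.88% of the genes, where 11% of all probe sets were called (5.38% higher and 5.64% lower). At an unadjusted p under 0.05 there were 8 genes, or 23.5%, against 31.2% of all probe sets. With Ac-GlcNAc against untreated cells 0 of 34 were called in limma, where 0.442% of all probe sets were; 6 genes had an unadjusted p under 0.05, or 17.6% against 26.4%. Limma with array weights called 2 of the 34, where it called 9.85% of all probe sets. The 0.442% of all probe sets became 7.61% without untreated replicate 1 and 0.0224% without Ac-GlcNAc replicate 3. Between the compounds 1 of 34 was called, MAN1B1, lower with Ac-4-deoxy-GlcNAc, or 2.94% against 2.38% of all probe sets (0.896% higher and 1.48% lower). The unadjusted p was under 0.05 for 4 genes, or 11.8% against 13.6%. None of these shares lay far above that of all probe sets. In these bulk samples of a single cell line, a shift in the mix of cells within the line and a change of RNA per cell cannot be told apart.

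The median log2 difference was -0.01 with Ac-4-deoxy-GlcNAc (range -0.41 to 0.34), 0.03 with Ac-GlcNAc (-0.28 to 0.30) and -0.02 between the compounds (-0.51 to 0.25). Over all probe sets the medians were -0.05, -0.02 and 0.00. The median size of a difference was 0.15, 0.13 and 0.09 for the 34 genes, and 0.17, 0.15 and 0.09 for all probe sets. The 95% interval of a gene's difference lay within 1.5-fold either way for 32 of 34 genes with Ac-4-deoxy-GlcNAc, for 34 of 34 with Ac-GlcNAc and for 32 of 34 between the compounds. The shares of all probe sets were 80.3%, 84% and 90.9%. The exceptions were MAN1B1 and ST6GAL2 with Ac-4-deoxy-GlcNAc, and MAN1B1 and B4GALT5 between the compounds. The bound farthest from 0 was a 1.56-fold fall of MAN1B1 with Ac-4-deoxy-GlcNAc, a 1.45-fold rise of MAN1A2 with Ac-GlcNAc, and a 1.67-fold fall of MAN1B1 between the compounds.

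**Figure D1:**
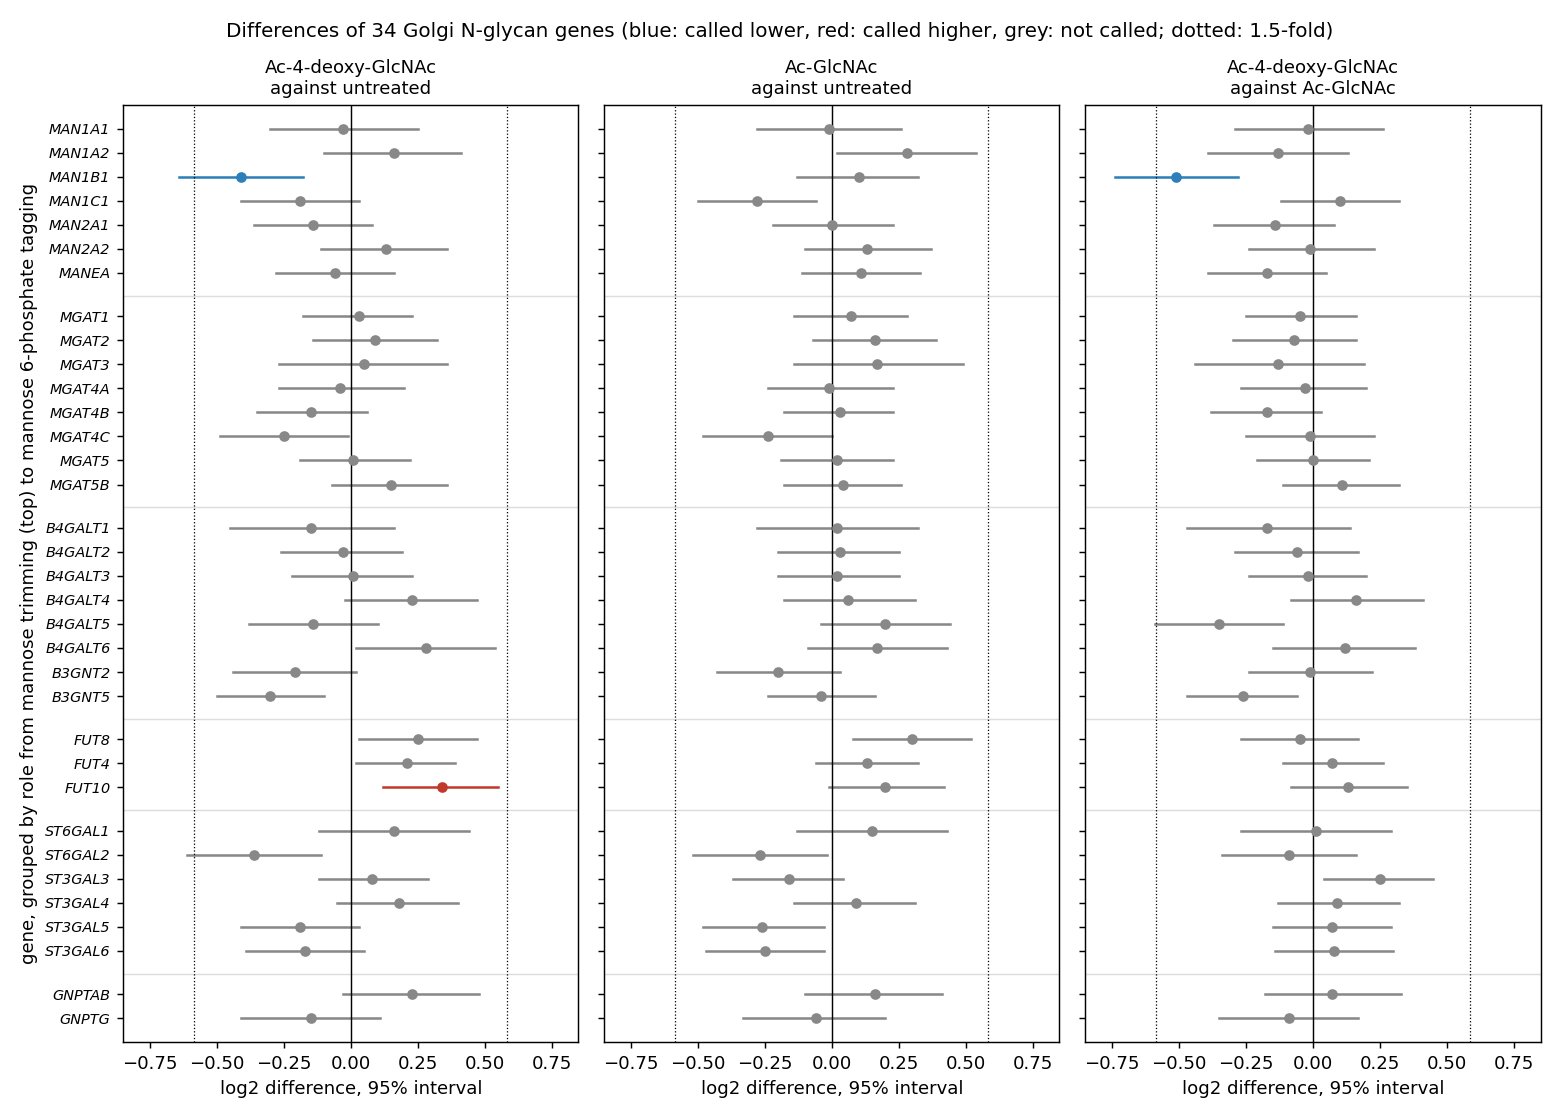
Log2 differences of the 34 genes (points) with 95% intervals (lines) in the 3 comparisons, 3 arrays per group, ordered by role from mannose trimming to mannose 6-phosphate tagging. MAN1B1 was called lower with Ac-4-deoxy-GlcNAc in both of its comparisons and FUT10 higher against untreated cells, and dotted lines mark 1.5-fold.

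Mannose trimming held the gene called in both comparisons of Ac-4-deoxy-GlcNAc. MAN1B1 encodes the alpha-mannosidase that removes a single mannose from the precursor, an early cut that also marks misfolded glycoproteins for degradation. Its log2 level was 7.19, 7.29 and 7.36 with Ac-4-deoxy-GlcNAc, against 7.94, 7.78 and 7.65 with Ac-GlcNAc and 7.78, 7.54 and 7.76 in untreated cells. All 3 Ac-4-deoxy-GlcNAc arrays lay below the 6 others, and the arrays of the other 2 groups overlapped. MAN1B1 was 1.33-fold lower than in untreated cells (log2 -0.41, SE 0.11, adjusted p = 0.0273) and 1.42-fold lower than with Ac-GlcNAc (log2 -0.51, SE 0.11, adjusted p = 0.0233). These 2 comparisons share the Ac-4-deoxy-GlcNAc arrays. With Ac-GlcNAc against untreated cells the gene differed by 0.10 (95% interval -0.13 to 0.32, adjusted p = 0.572). The fit was repeated 9 times, each time without 1 array. The call against untreated cells held in 5 and was lost without any 1 of the Ac-4-deoxy-GlcNAc arrays (adjusted p 0.0814, 0.0534 and 0.0643 without replicate 1, 2 and 3) or without untreated replicate 3 (0.0694). The call between the compounds held in 5 and was lost without Ac-4-deoxy-GlcNAc replicate 1 (0.107) or 3 (0.0534) and without Ac-GlcNAc replicate 1 (0.13) or 2 (0.0918). The log2 difference stayed between -0.49 and -0.37 against untreated cells and between -0.58 and -0.44 between the compounds in those fits.

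As MAN1B1 was the gene called in both comparisons, its promoter window from the RefSeq table is printed here, 250 bases before to 50 after the annotated start on GRCh38.p14, chr9:137086735-137087034, plus strand. That build is not the hg18 build of the authors' processing. Capitals mark matches to the GC box GGGCGG on either strand.
MAN1B1: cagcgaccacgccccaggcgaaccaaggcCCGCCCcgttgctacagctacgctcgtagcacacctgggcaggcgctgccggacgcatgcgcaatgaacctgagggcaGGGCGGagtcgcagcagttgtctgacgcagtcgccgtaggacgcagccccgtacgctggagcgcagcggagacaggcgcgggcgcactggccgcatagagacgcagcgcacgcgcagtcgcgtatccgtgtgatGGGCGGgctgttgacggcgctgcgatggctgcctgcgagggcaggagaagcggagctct
Windows were found in the table for 29 of the 34 genes. Both strands were searched for the unfolded protein response motifs TGACGTG, ERSE and ERSE-II, the ATF4 type motif TGATGNAAN, the CRE TGACGTCA, the E-box CACGTG and the GC box. The first and the E-box share the letters ACGTG, and no motif lies whole inside another. The MAN1B1 window held 3 GC boxes and none of the others. GC boxes were in 20 of the 29 windows (69.0%) and in 44.6% of all 27305 windows. TGACGTG was in 2 of 29, those of MGAT1 and B3GNT2, against 2.0% of all windows, and CACGTG in 3 of 29 against 7.43%. TGATGNAAN was in the FUT8 window and TGACGTCA in that of ST3GAL5 (3.67% and 1.98% of all windows). ERSE and ERSE-II were each in 0 of 29 windows, and in 0.0806% and 0.0549% of all. The median GC content was 69.0% in the 29 windows and 58.3% in all windows. These letter matches are a description and show no binding.

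The other 6 trimming genes were not called in any comparison. MAN1C1, a Golgi alpha-mannosidase, had log2 levels of 5.38, 5.29 and 5.24 with Ac-GlcNAc and 5.51, 5.70 and 5.54 in untreated cells. These groups did not overlap, and the difference of -0.28 (SE 0.10) had an adjusted p of 0.121. It was -0.17 with cyclic loess and -0.11 with the array SD as a covariate. With Ac-4-deoxy-GlcNAc its levels were 5.40, 5.54 and 5.25, overlapping those of untreated cells (difference -0.19, adjusted p = 0.22). MAN1A2, which does the same work in the Golgi, differed from untreated cells by 0.16 with Ac-4-deoxy-GlcNAc and by 0.28 with Ac-GlcNAc (adjusted p = 0.384 and 0.16). For its close relative MAN1A1 the differences were -0.03 and -0.01. MAN2A1 and MAN2A2, the alpha-mannosidases II that act after the first GlcNAc is added, lay within 0.14 of untreated cells either way with either compound. MANEA, an endomannosidase that offers a route around the endoplasmic reticulum glucosidases, differed from untreated cells by -0.06 with Ac-4-deoxy-GlcNAc and by 0.11 with Ac-GlcNAc.

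The branching enzymes, which take GlcNAc from UDP-GlcNAc, showed no call in 8 genes and 3 comparisons, and at an unadjusted p under 0.05 MGAT4C alone, with Ac-4-deoxy-GlcNAc against untreated cells (1 of the 8, where 31.2% of all probe sets did so). MGAT1, which starts every hybrid and complex glycan, had log2 levels of 8.14, 8.26 and 7.97 with Ac-4-deoxy-GlcNAc, 8.19, 8.17 and 8.15 with Ac-GlcNAc and 8.06, 8.08 and 8.15 in untreated cells. The 3 groups overlapped, and the intervals were -0.18 to 0.23 with Ac-4-deoxy-GlcNAc and -0.14 to 0.28 with Ac-GlcNAc. MGAT5, which adds the branch favoured for poly-lactosamine, had 8.31, 8.31 and 8.32 with Ac-4-deoxy-GlcNAc, 8.26, 8.22 and 8.46 with Ac-GlcNAc, and 8.20, 8.30 and 8.39 in untreated cells. Its differences were 0.01 (95% interval -0.19 to 0.22) and 0.02 (-0.19 to 0.23) against untreated cells, and 0.00 between the compounds (-0.21 to 0.21). MGAT2, which starts the second antenna, differed from untreated cells by 0.09 and 0.16, and MGAT3, which adds the bisecting GlcNAc, by 0.05 and 0.17, with Ac-4-deoxy-GlcNAc and Ac-GlcNAc in that order. On the Ac-4-deoxy-GlcNAc arrays MGAT3 had levels of 7.22, 7.20 and 7.79, with replicate 3 high.

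MGAT4A and MGAT4B, the isoenzymes of a further branch, differed from untreated cells by at most 0.15 in size. MGAT4B had log2 levels of 9.06, 9.18 and 9.23 with Ac-4-deoxy-GlcNAc against 9.27, 9.30 and 9.41 with Ac-GlcNAc. Those arrays did not overlap, and the difference of -0.17 (95% interval -0.38 to 0.03) had an adjusted p of 0.493. MGAT5B, a relative of MGAT5 best known from brain, differed by 0.15 and 0.04 from untreated cells. MGAT4C lay below the 25th percentile of probe sets, at a mean of 3.83 over the 9 arrays. Its levels were 3.74, 3.77 and 3.71 with Ac-4-deoxy-GlcNAc, 3.69, 3.82 and 3.75 with Ac-GlcNAc and 3.89, 4.25 and 3.82 in untreated cells, where replicate 2 was the highest. Every treated array lay below every untreated array (-0.25 and -0.24, adjusted p = 0.15 and 0.196). Without untreated replicate 2 the differences were -0.12 and -0.11. Signal over background was not used here, so a level this low cannot be told apart from background.

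Among the 8 genes that add galactose or extend lactosamine none was called. At an unadjusted p under 0.05 there were 2 with Ac-4-deoxy-GlcNAc, 0 with Ac-GlcNAc and 2 between the compounds (25%, 0% and 25%, all probe sets 31.2%, 26.4% and 13.6%). B3GNT5, which starts lacto-series glycolipids, came nearest. Its log2 levels of 7.52, 7.50 and 7.45 with Ac-4-deoxy-GlcNAc lay below all others, which were 7.81, 7.64 and 7.82 with Ac-GlcNAc and 7.76, 7.72 and 7.89 in untreated cells. The difference from untreated cells was -0.30 (SE 0.09, adjusted p = 0.0537), and that from Ac-GlcNAc was -0.26 (SE 0.09, adjusted p = 0.183). B3GNT5 passed the threshold against untreated cells in 5 of 21 other settings, which were cyclic loess, quantile normalization, both filters on low levels and array weights. It did not in any fit that left out 1 array.

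B4GALT5, which makes lactosylceramide, had levels of 10.57, 10.72 and 10.80 with Ac-4-deoxy-GlcNAc and 11.04, 11.01 and 11.08 with Ac-GlcNAc. The arrays of the 2 compounds did not overlap, but the untreated levels of 11.05, 10.64 and 10.83 spanned the gap. The difference between the compounds was -0.35 (SE 0.11, adjusted p = 0.142). Its partner B4GALT6 was at 8.96, 8.86 and 9.06 with Ac-4-deoxy-GlcNAc, 8.95, 8.80 and 8.79 with Ac-GlcNAc and 8.86, 8.40 and 8.78 in untreated cells (0.28 with Ac-4-deoxy-GlcNAc against untreated, adjusted p = 0.134). The lowest of its 9 values was on untreated replicate 2, and without that array the difference was 0.14. B4GALT2 and B4GALT3, which add galactose to N-glycan antennae, differed from untreated cells by at most 0.03 in size with either compound. B4GALT4 differed by 0.23 with Ac-4-deoxy-GlcNAc (adjusted p = 0.19) and by 0.06 with Ac-GlcNAc. B3GNT2, which builds poly-lactosamine, was -0.21 and -0.20 from untreated cells (adjusted p = 0.201 and 0.248). B4GALT1, the galactosyltransferase usually held to do most of this work, gave a mean of only 3.90 over the 9 arrays, below the 25th percentile of probe sets. Its differences of -0.15 and 0.02 are those of a probe set near the bottom of the range.

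All 3 measured fucosyltransferase genes had positive differences from untreated cells with either compound. Of all 17859 probe sets, 7487 were positive with Ac-4-deoxy-GlcNAc and 8452 with Ac-GlcNAc. Of the 3 genes 1 was called, with Ac-4-deoxy-GlcNAc (33.3%, all probe sets 11%). FUT10, whose product is now named a protein O-fucosyltransferase, rose with Ac-4-deoxy-GlcNAc. Its log2 levels were 7.90, 7.83 and 7.96 with Ac-4-deoxy-GlcNAc, 7.79, 7.85 and 7.66 with Ac-GlcNAc and 7.71, 7.44 and 7.53 in untreated cells. The Ac-4-deoxy-GlcNAc and untreated arrays did not overlap, while the Ac-GlcNAc arrays overlapped both. FUT10 was 1.26-fold higher than in untreated cells (log2 0.34, SE 0.10, adjusted p = 0.0477), close to the threshold. That call held in 1 of 9 fits, the one without untreated replicate 1 (adjusted p = 0.0236). In the 8 others the adjusted p ran up to 0.169, and the difference was 0.28 without untreated replicate 2.

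FUT8, the enzyme of core fucose, had levels of 9.83, 9.76 and 9.87 with Ac-4-deoxy-GlcNAc, 9.87, 9.92 and 9.82 with Ac-GlcNAc and 9.68, 9.35 and 9.68 in untreated cells. Every treated array lay above every untreated array, and untreated replicate 2 was the lowest. The differences of 0.25 (SE 0.10, adjusted p = 0.123) and 0.30 (SE 0.10, adjusted p = 0.114) did not pass. Without untreated replicate 2 they were 0.14 and 0.19. With Ac-GlcNAc the difference of FUT8 was 0.18 with cyclic loess, 0.19 with quantile normalization and 0.10 with the array SD as a covariate. Between the compounds FUT8 differed by -0.05 (95% interval -0.27 to 0.17). FUT4, which makes Lewis x, differed from untreated cells by 0.21 and 0.13 (adjusted p = 0.131 and 0.341), also without overlap. With 3 arrays a group, arrays of the 2 groups did not overlap for 12 of the 34 genes with Ac-4-deoxy-GlcNAc against untreated cells (35.3%, all probe sets 32.1%), 9 with Ac-GlcNAc (26.5%, all probe sets 32.3%) and 6 between the compounds (17.6%, all probe sets 21.2%).

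**Figure D2:**
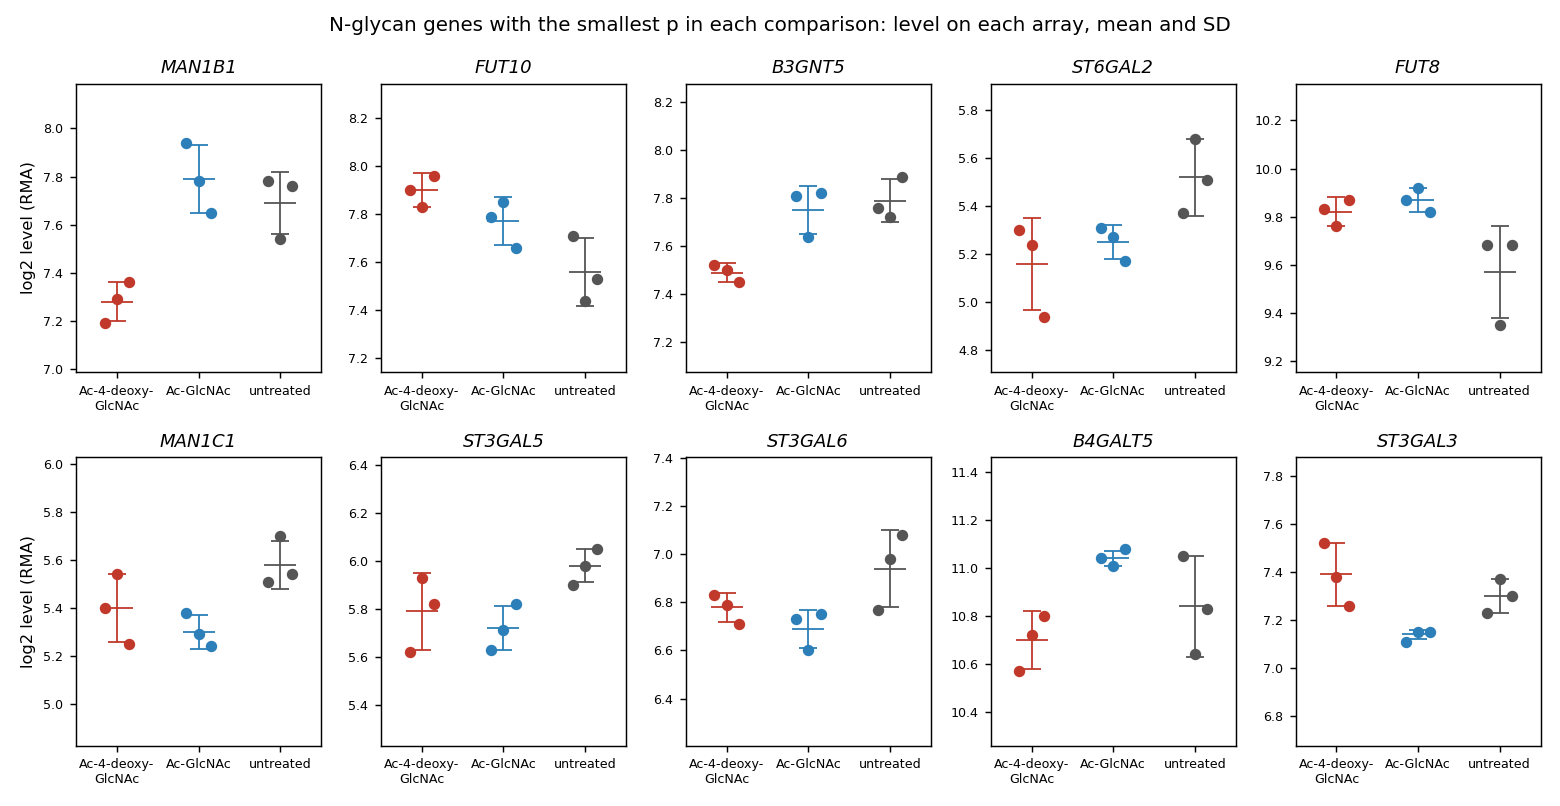
Log2 level on each array (points), mean (wide bar) and SD (whiskers) of the 10 genes with the smallest p in 1 or more of the comparisons, n = 3 arrays per group. Every panel spans the same log2 distance, and MAN1B1 and B3GNT5 have all 3 Ac-4-deoxy-GlcNAc arrays below the 6 others.

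The sialyltransferases gave no call in 6 genes. At an unadjusted p under 0.05 there was 1 with Ac-4-deoxy-GlcNAc, 3 with Ac-GlcNAc and 1 between the compounds (16.7%, 50% and 16.7%, all probe sets 31.2%, 26.4% and 13.6%). ST6GAL1, the main enzyme of terminal sialic acid on N-glycans in many carcinoma cells, had log2 levels of 8.72, 9.00 and 8.79 with Ac-4-deoxy-GlcNAc, 8.63, 8.80 and 9.06 with Ac-GlcNAc and 8.73, 8.47 and 8.83 in untreated cells. The groups overlapped, with differences from untreated cells of 0.16 (95% interval -0.12 to 0.44) and 0.15 (-0.13 to 0.43), and of 0.01 between the compounds (-0.27 to 0.29). ST6GAL2, its relative, was dimmer. Its levels were 5.30, 5.24 and 4.94 with Ac-4-deoxy-GlcNAc, 5.31, 5.27 and 5.17 with Ac-GlcNAc and 5.37, 5.68 and 5.51 in untreated cells. All treated arrays lay below all untreated arrays, and the differences of -0.36 (SE 0.12, adjusted p = 0.0605) and -0.27 (SE 0.12, adjusted p = 0.162) did not pass. ST6GAL2 was called with Ac-4-deoxy-GlcNAc without untreated replicate 1 (adjusted p = 0.0349), and its difference was -0.25 where it was smallest among the fits with 1 array left out. With the array SD as a covariate it was -0.18 (adjusted p = 0.409).

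ST3GAL3, ST3GAL4 and ST3GAL6 cap antennae with the other sialic acid linkage, and ST3GAL5 makes the ganglioside GM3. ST3GAL5 had 5.62, 5.93 and 5.82 with Ac-4-deoxy-GlcNAc, 5.63, 5.71 and 5.82 with Ac-GlcNAc and 5.90, 5.98 and 6.05 in untreated cells. ST3GAL6 had 6.83, 6.79 and 6.71 with Ac-4-deoxy-GlcNAc, 6.73, 6.60 and 6.75 with Ac-GlcNAc and 6.77, 6.98 and 7.08 in untreated cells. For both genes the Ac-GlcNAc arrays lay below the untreated arrays. The differences of -0.26 and -0.25 with Ac-GlcNAc had adjusted p = 0.146 and 0.151, and both genes were called lower with array weights (0.0365 and 0.0389). ST3GAL3 was at 7.52, 7.38 and 7.26 with Ac-4-deoxy-GlcNAc against 7.11, 7.15 and 7.15 with Ac-GlcNAc, a difference of 0.25 (SE 0.10, adjusted p = 0.24) without overlap, while untreated cells had 7.23, 7.37 and 7.30. ST3GAL4 differed from untreated cells by 0.18 and 0.09 (adjusted p = 0.25 and 0.611).

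The 2 genes of the mannose 6-phosphate tag were not called. GNPTAB encodes the catalytic and GNPTG the accessory subunit of the transferase that places GlcNAc-phosphate on lysosomal enzymes. GNPTAB had levels of 9.53, 9.57 and 9.70 with Ac-4-deoxy-GlcNAc, 9.54, 9.57 and 9.47 with Ac-GlcNAc and 9.59, 9.10 and 9.43 in untreated cells. The groups overlapped, and untreated replicate 2 was again the lowest array. The differences from untreated cells were 0.23 and 0.16 for GNPTAB (adjusted p = 0.203 and 0.404), or 0.09 and 0.02 without that array, and -0.15 and -0.06 for GNPTG (0.403 and 0.753).

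Differences from untreated cells went with the level of the gene. Across the 34 genes, the mean log2 level over the 9 arrays and the difference had a Pearson r of 0.34 with Ac-4-deoxy-GlcNAc and 0.66 with Ac-GlcNAc. Across all 17859 probe sets the values were 0.34 and 0.58. The genes share arrays, so these are descriptions. Without untreated replicate 2, the array with the narrowest range, they were 0.08 and 0.45 for the 34 genes and 0.15 and 0.45 for all probe sets. Without untreated replicate 3 they were 0.48 and 0.79 for the 34 genes and 0.42 and 0.61 for all probe sets. Of the 34 genes, 7 lay below the median probe set. Their median difference was -0.19 with Ac-4-deoxy-GlcNAc and -0.24 with Ac-GlcNAc, against 0.01 and 0.07 for the 27 genes above it. Without untreated replicate 2 the medians were -0.12 and -0.11 for the 7, against 0.02 and 0.03 for the 27. MGAT4C, ST6GAL2, MAN1C1 and ST3GAL5, all at negative differences with both compounds, are among the 7, as is FUT4, which was positive. MAN1B1 differed from untreated cells by -0.49 without untreated replicate 2 and by -0.41 with it, with Ac-4-deoxy-GlcNAc.

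**Figure D3:**
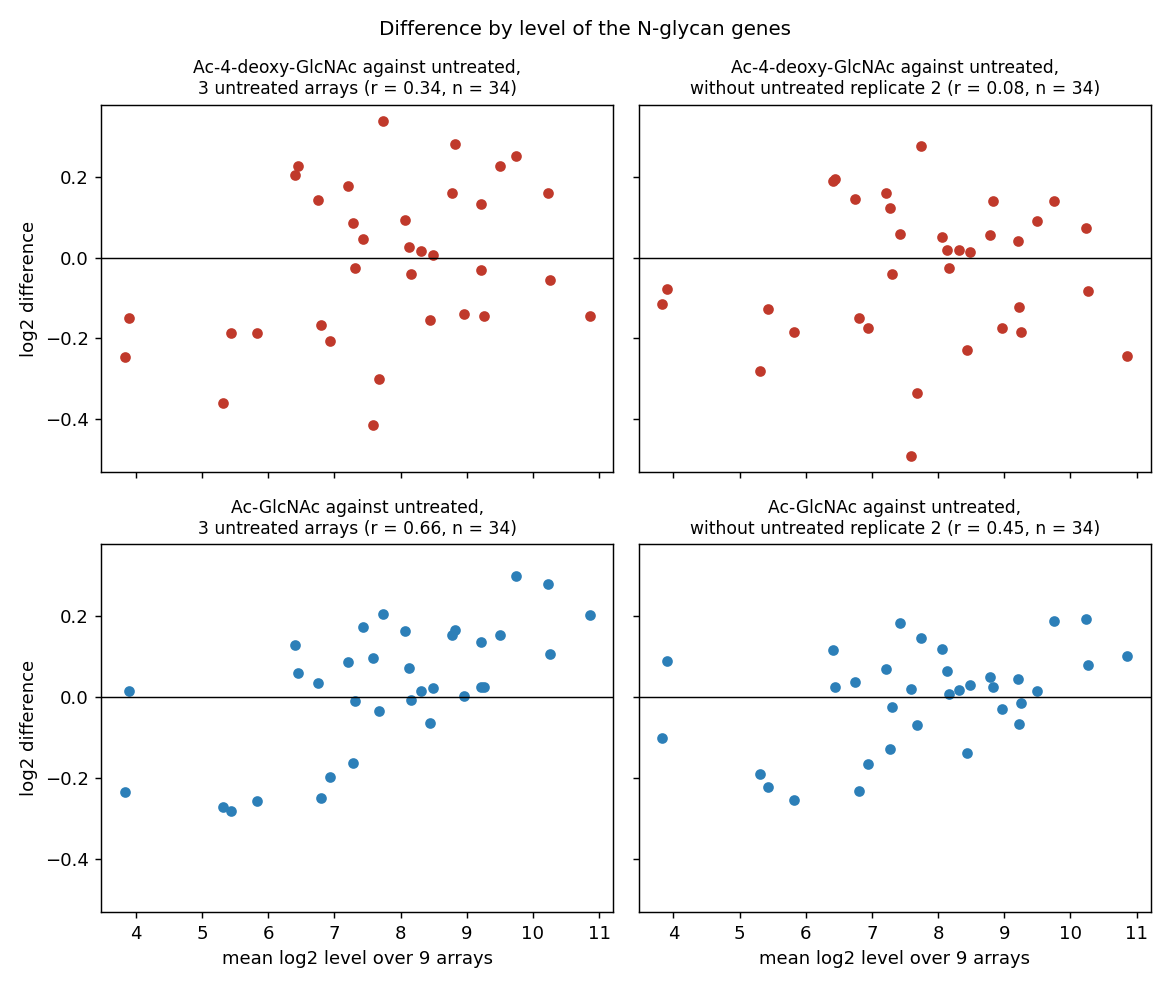
Log2 difference from untreated cells (vertical) by mean log2 level over 9 arrays (horizontal), each point 1 of the 34 genes, with Ac-4-deoxy-GlcNAc above and Ac-GlcNAc below. The left panels use 3 untreated arrays and the right panels leave out untreated replicate 2, where r is 0.08 and 0.45 in place of 0.34 and 0.66.

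Neighbouring steps of the pathway were read from 6 further lists with 109 genes, of which 92 were measured. With Ac-4-deoxy-GlcNAc against untreated cells 5 were called higher and 4 were called lower, 9.78% of them against 11% of all probe sets. With Ac-GlcNAc 0 of 92 were called in limma, and 15 had an unadjusted p under 0.05 (16.3%, all probe sets 26.4%). Ac-4-deoxy-GlcNAc against Ac-GlcNAc gave 0 calls upward and 4 downward, 4.35% against 2.38% of all probe sets.

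Of 13 genes of endoplasmic reticulum trimming and its lectin cycle, 1 rose with Ac-4-deoxy-GlcNAc against untreated cells and 0 fell (7.69%, all probe sets 11%). LMAN1, a cargo lectin that carries glycoproteins to the Golgi, averaged 11.33 ± 0.13 with Ac-4-deoxy-GlcNAc and 10.95 ± 0.09 in untreated cells (SD, n = 3 each; log2 0.39, SE 0.10, adjusted p = 0.026), and lost the call without untreated replicate 2 or without the third Ac-4-deoxy-GlcNAc array (adjusted p up to 0.117). Between the compounds EDEM3, a mannosidase-like protein that acts with MAN1B1 in marking misfolded glycoproteins, was lower with Ac-4-deoxy-GlcNAc. Its levels were 7.92, 7.97 and 7.90 with Ac-4-deoxy-GlcNAc against 8.31, 8.29 and 8.48 with Ac-GlcNAc (log2 -0.43, SE 0.10, adjusted p = 0.0461), a call held in 2 of 9 such fits. EDEM1 and EDEM2 were not called, with differences between the compounds of -0.22 and -0.12.

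Of 21 genes for donor sugars and their transporters, 3 rose and 1 fell with Ac-4-deoxy-GlcNAc against untreated cells (19.0%, all probe sets 11%). GNE, the first enzyme of sialic acid synthesis, was at 10.09, 10.05 and 10.05 with Ac-4-deoxy-GlcNAc, 9.83, 10.04 and 9.95 with Ac-GlcNAc and 9.68, 9.54 and 9.63 in untreated cells. Treated and untreated arrays did not overlap, and the call with Ac-4-deoxy-GlcNAc (adjusted p = 0.0115) held in 9 of 9 such fits. NAGK, the kinase that salvages free GlcNAc, was at 9.21, 9.44 and 9.37 with Ac-4-deoxy-GlcNAc against 9.78, 9.76 and 9.72 with Ac-GlcNAc and 9.85, 9.73 and 9.96 in untreated cells. It fell against untreated cells (adjusted p = 0.00746) in 9 of 9 such fits, and was called lower than with Ac-GlcNAc in 3 of 9. The calls of NANS, which acts later in sialic acid synthesis, and of the transporter SLC35D2 held in 2 and 5 of 9. SLC35A2 and SLC35A3, Golgi transporters for UDP-galactose and UDP-GlcNAc, were not called, at -0.14 and 0.22 with Ac-4-deoxy-GlcNAc.

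Of 12 genes that take glycans apart, 1 fell with Ac-4-deoxy-GlcNAc against untreated cells (8.33%, all probe sets 11%). FUCA1, the lysosomal fucosidase, had log2 levels of 7.0, 7.18 and 7.10 with Ac-4-deoxy-GlcNAc against 7.65, 7.57 and 7.78 with Ac-GlcNAc and 7.58, 7.47 and 7.94 in untreated cells. It was 1.48-fold lower than in untreated cells (log2 -0.57, SE 0.12, adjusted p = 0.0125, called in 9 of 9 such fits) and 1.49-fold lower than with Ac-GlcNAc (adjusted p = 0.0253, called in 4 of 9). Its interval against Ac-GlcNAc was -0.83 to -0.31, while Ac-GlcNAc against untreated cells differed by 0.01.

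Of 19 genes of Golgi homeostasis, 1 rose and 0 fell with Ac-4-deoxy-GlcNAc against untreated cells (5.26%, all probe sets 11%). That gene was COG3 (0.34, SE 0.10, adjusted p = 0.0419, called in 2 of 9 such fits). COG3 and COG6 are subunits of the tethering complex that recycles Golgi enzymes. COG6 fell under Ac-4-deoxy-GlcNAc relative to Ac-GlcNAc. Its levels were 7.43, 7.53 and 7.54 with Ac-4-deoxy-GlcNAc, 8.18, 8.21 and 8.04 with Ac-GlcNAc and 7.90, 7.66 and 7.89 in untreated cells. The 3 groups did not overlap, with untreated cells in between. The 1.56-fold difference between the compounds (log2 -0.64, SE 0.10, adjusted p = 0.00507) was called in 9 of 9 fits, and neither difference from untreated cells was (-0.32 and 0.33, adjusted p = 0.0573 and 0.0954).

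Of 25 other terminal glycosyltransferase genes, 2 fell and 0 rose with Ac-4-deoxy-GlcNAc against untreated cells (8%, all probe sets 11%). These were FUT9 and ST8SIA4, the polysialyltransferase (-0.47 and -0.41, adjusted p = 0.023 and 0.0282). Both lay below the 25th percentile of probe sets and were called in 5 and 6 of 9 such fits, neither of them without untreated replicate 2. Of the mannose 6-phosphate receptor list, M6PR and the uncovering enzyme NAGPA were measured and not called.

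**Figure D4:**
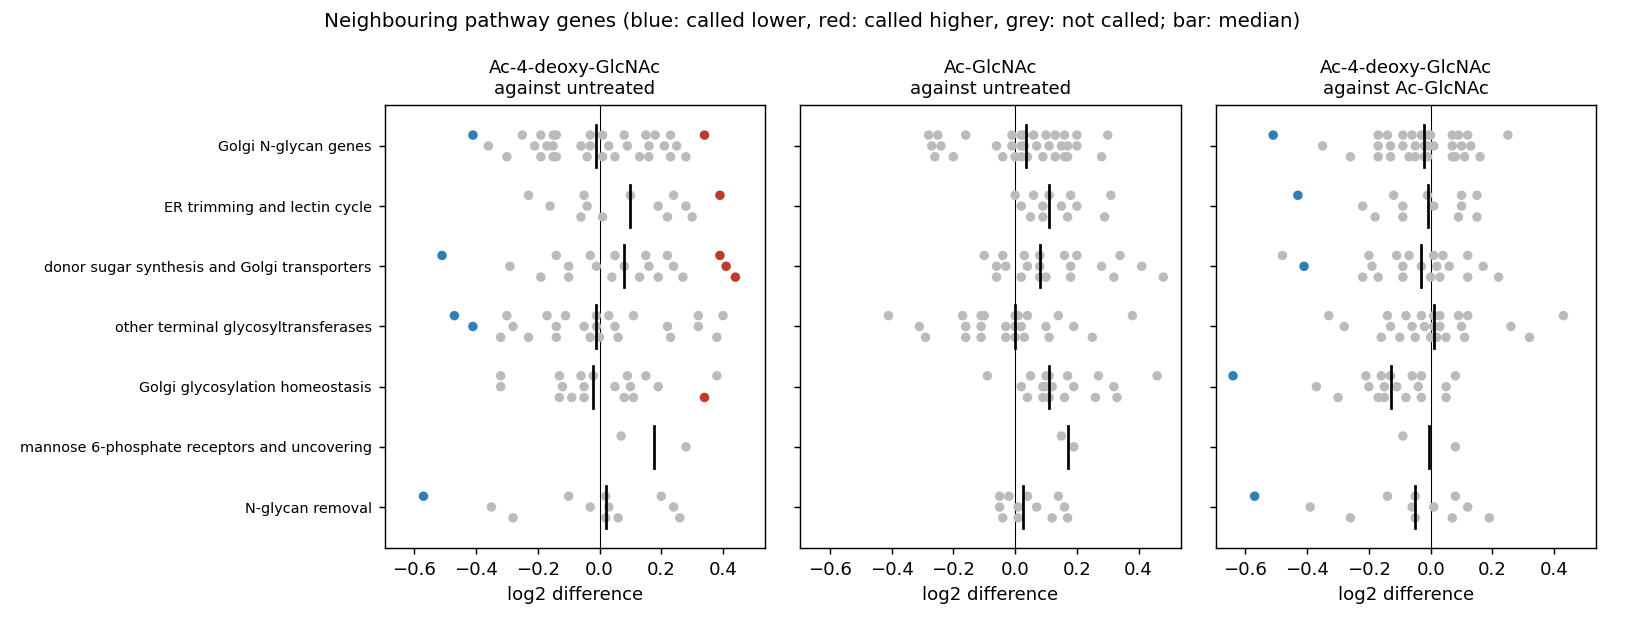
Log2 differences (points, 1 per gene) of the 34 Golgi N-glycan genes and the 6 neighbouring lists in the 3 comparisons, with called genes in colour and the median as a bar. The points farthest left are FUCA1 (-0.57) in the comparison of Ac-4-deoxy-GlcNAc with untreated cells and COG6 (-0.64) in that with Ac-GlcNAc.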

How the data were processed

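The deposited table held 1 log2 value per probe set and array. Per the submitters' processing notes, the authors used RMA and Partek with hg18; versions and settings are not given in the sources used here. Of 17859 probe sets, 14413 were paired with 1 gene, 2405 with several and 1041 with none; 14385 of the 14413 were found by gene identifier in a RefSeq table of GRCh38.p14. No scanner files were used here.

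All 9 arrays entered 1 fit in limma 3.58.1 under R 4.3.3 (lmFit and eBayes, group as the only term). Each of 3 contrasts was tested two-sided, adjusted over all probe sets by the Benjamini-Hochberg method, and called at an adjusted p under 0.05. The number of arrays limits precision: the median SE over the 34 genes was 0.106. On simulated arrays of 17859 probe sets with 200 changed, 66%, 62% and 68% of 1.5-fold changes were recovered for Ac-4-deoxy-GlcNAc against untreated, Ac-GlcNAc against untreated and Ac-4-deoxy-GlcNAc against Ac-GlcNAc. All 3 groups were simulated with the same spread, so these 3 figures do not tell the comparisons apart. The 200 were not matched to the shares called in the data (11%, 0.442% and 2.38%), so recovery in the data may differ.

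Alternatives were the replicate block, other normalizations, filters, variance models, array weights, the array SD as a covariate and leaving out arrays. Genes given per array were those called, filled up to 4 per comparison by smallest p, and others of each role. The genes, lists and settings were chosen with earlier results of these data known.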

Additional observations from a re-analysis of the deposited data

How the results depend on the processing

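For Ac-4-deoxy-GlcNAc against untreated cells, 2 genes were called, where 11% of all probe sets were. The count was 4 with the filter at the 25th percentile (B3GNT5 and ST6GAL2 besides), where 15.3% of all probe sets tested were called. It was 1 with the replicate block (12.4%), 1 with the array SD as a covariate (3.34%) and 0 on only the 6 arrays compared (4.58%). It was 1 with both Ac-4-deoxy-GlcNAc replicate 1 and untreated replicate 2 left out (4.09%), a setting chosen after seeing the data. With 1 array left out the count ran from 0 to 3, and the share of all probe sets from 3.38% to 17.2%. The count was 0 without any 1 of the Ac-4-deoxy-GlcNAc arrays or untreated replicate 3. It was 1 without untreated replicate 2 or any 1 of the Ac-GlcNAc arrays, and 3 without untreated replicate 1, where the share was 17.2%. For Ac-GlcNAc against untreated cells the count of 0 became 2 with array weights (ST3GAL5 and ST3GAL6), which called 9.85% of all probe sets in place of 0.442%, and was 0 in the 20 other settings. With 1 array left out, the share of all probe sets ran from 0.0224% to 7.61% in that comparison. With the array SD as a covariate that share was 0.0112%. Between the compounds the count of 1 became 3 with array weights (B4GALT5 and ST3GAL3 besides MAN1B1), where 6.65% of all probe sets were called in place of 2.38%, and was 0 or 1 with 1 array left out. It was 0 without Ac-4-deoxy-GlcNAc replicate 1 or 3 or Ac-GlcNAc replicate 1 or 2. The share of all probe sets ran from 0.79% to 3.69% with 1 array left out. The weight of untreated replicate 2 was 0.241, the lowest, and that of Ac-GlcNAc replicate 1 was 2.89, the highest. MAN1B1 kept its negative sign in all 21 settings of both comparisons where it was called, and was called in 16 against untreated cells and 17 between the compounds; FUT10 was called in 9 of 21. No named difference changed sign. A stricter filter tests fewer probe sets; otherwise the cause was not tested. The labels name nothing beyond the number that arrays of the same replicate number share. Deviations of same-numbered arrays correlated between -0.245 and 0.369, and those of differently numbered arrays between -0.402 and 0.406. Whether same-numbered arrays shared a batch was not tested. With the block FUT10 was not called (adjusted p = 0.0557), and no other call of a named gene changed; over all probe sets it called 2207, 324 and 432 in place of 1968, 79 and 425. Signal over background was not used here, which limits B4GALT1 and MGAT4C most.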
